A study of Mus musculus with 4 samples.

Results

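The AP-1 genes were described in leukemic granulocyte-macrophage progenitors (L-GMPs), the leukemia cells that resemble normal progenitors of granulocytes and macrophages. The 10 genes are Jun, Junb and Jund of the Jun family, Fos, Fosb, Fosl1 and Fosl2 of the Fos family, and the related factors Batf, Atf3 and Jdp2, out of 45232 gene identifiers in the count files. They were listed as one transcription factor family and selected on earlier results of this same comparison, so their values between the groups are a description and carry no test here. Each of the 10 symbols matched a single Ensembl identifier, and all 10 passed the filter on low counts.

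The L-GMPs were purified at death from secondary recipients of MLL-AF9 leukemia. MLL-AF9 is a fusion protein that drives acute myeloid leukemia. The gate took cells positive for both reporters (GFP, tdTom), for c-Kit and Sca-1, and for CD34 and CD16/32. Each group, Scr and miR-99 KD, has 2 mice and 2 libraries. Both groups carry MLL-AF9 and both fluorescent reporters, and what Scr and KD stand for is not spelled out in the labels. The sources used here do not say whether the recipients shared 1 primary leukemia, so p-values measure only the spread between 2 mice a group. The question behind the comparison, as far as the title gives it, is how expression in these cells differs between Scr and miR-99 KD.

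AP-1 is a dimer of basic leucine zipper (bZIP) proteins. Jun proteins pair with each other or with Fos proteins, whereas Fos proteins do not form stable dimers among themselves. Many of these genes are immediate-early genes, switched on within minutes of a growth or stress signal through MAP kinases, and in myeloid cells AP-1 takes part in monocyte and granulocyte differentiation. Loss of Junb in mice is known to cause a myeloproliferative disease.

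The mature microRNAs of the miR-99 and miR-100 family share 1 seed, the bases that pair with target transcripts. They are shown with the seed (bases 2 to 8, from RefSeq on GRCm38.p6) in capitals, because the AP-1 transcripts were searched for its match.
miR-99a-5p: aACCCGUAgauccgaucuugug
miR-99b-5p: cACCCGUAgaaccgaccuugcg
miR-100-5p: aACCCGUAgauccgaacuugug
The match to bases 2 to 8 is TACGGGT, and the match to bases 2 to 7 followed by A is ACGGGTA. In the longest annotated 3' UTR of each AP-1 gene, from 335 bases in Batf to 4653 bases in Fosl2, 0 of 10 genes held either match, beside 399 of 21045 genes (1.90%) in the whole annotation. That says only that these letters are not in these stretches.

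The promoters of Junb, Jun and Fos are shown because these 3 genes, all of them immediate-early genes, had different patterns over the libraries. Junb and Jun had lower values in both miR-99 KD libraries than in both Scr libraries, and Fos overlapped between the groups. Each stretch runs from 250 bases before to 50 bases after the RefSeq start on GRCm38.p6, 5′ to 3′ on the strand of the gene. The stretches lie at chr8:84978699-84978998 (minus strand), chr4:95052173-95052472 (minus strand) and chr12:85473640-85473939 (plus strand).
Junb: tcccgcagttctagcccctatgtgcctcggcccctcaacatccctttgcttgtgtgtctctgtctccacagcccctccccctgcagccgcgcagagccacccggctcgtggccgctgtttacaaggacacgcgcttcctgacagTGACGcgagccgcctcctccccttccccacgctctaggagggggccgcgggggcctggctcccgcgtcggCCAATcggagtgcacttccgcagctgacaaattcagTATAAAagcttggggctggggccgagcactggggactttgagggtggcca
Jun: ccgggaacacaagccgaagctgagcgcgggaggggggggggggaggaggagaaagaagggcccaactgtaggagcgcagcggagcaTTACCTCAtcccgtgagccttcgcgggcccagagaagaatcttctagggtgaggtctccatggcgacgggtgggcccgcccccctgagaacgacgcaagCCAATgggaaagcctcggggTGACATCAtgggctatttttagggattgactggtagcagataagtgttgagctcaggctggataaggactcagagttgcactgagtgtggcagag
Fos: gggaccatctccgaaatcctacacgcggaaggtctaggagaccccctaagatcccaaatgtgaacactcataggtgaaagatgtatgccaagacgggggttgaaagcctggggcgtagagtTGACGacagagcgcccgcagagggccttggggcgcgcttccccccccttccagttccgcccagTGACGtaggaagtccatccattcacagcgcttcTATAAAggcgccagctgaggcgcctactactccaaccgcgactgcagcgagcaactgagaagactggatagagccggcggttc
Capitals mark the letters searched on both strands, other than GC boxes: the AP-1 site TGANTCA, the cAMP response element TGACGTCA, its first 5 letters TGACG, the 2 AP-1 variants known from the Jun promoter (TGACATCA and TTACCTCA), the TATA box TATAAA, the CCAAT box CCAAT, and the CArG box, the binding site of serum response factor. The 5-letter TGACG is contained in TGACGTCA, so the searches overlap.

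In the Jun stretch, TTACCTCA began 164 bases and TGACATCA 45 bases before the start. These 2 sequences occurred in 0.889% and 3.62% of 32851 promoters of that length. Junb and Fos held TGACG, which 20.8% of promoters hold, 106 bases before the start in Junb and 129 and 66 bases before it in Fos. TATAAA (13.6% of promoters) was found in Fos, 33 bases before the start, and in Junb, at the annotated start itself. CCAAT (37.4%) was found in Jun and Junb, 65 and 36 bases before the start. None of the 3 stretches held TGANTCA (7.81% of promoters), TGACGTCA (1.79%) or a CArG box (1.63%). Sequence more than 250 bases before the start was not searched, so sites further upstream, in Fos or the others, would not be seen. GC boxes (GGGCGG, 35.7%) occurred in Jun and Fos, 89 and 74 bases before the start. Of the 10 genes, 9 had a promoter in the table used, and Fosl1 was the exception.

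Gene counts per library ran from 38458519 to 42674407. Scr 1 stood apart, with 28573 genes detected against 21372 to 24038 in the other libraries, and with 51.9 CPM (gene counts scaled to library totals) on olfactory receptor genes against 4.78 to 14.95 CPM. The gate genes Cd34 and Fcgr3 had 283 to 482 CPM, while Ly6a, the gene of the gate marker Sca-1, had 4 to 8 counts a library. Ly6a did not pass the filter on low counts, so the transcripts do not bear out the Sca-1-positive part of the stated gate. The gate gene Kit had 453, 424, 298 and 232 CPM in the order Scr 1, Scr 2, miR-99 KD 1 and miR-99 KD 2. The MLL-AF9 program genes Hoxa9 (301, 351, 169 and 165 CPM) and Meis1 (359, 319, 231 and 196 CPM) were likewise lower in both miR-99 KD libraries. The edgeR adjusted p was 0.580 for Kit, 0.466 for Hoxa9 and 0.580 for Meis1. The mitochondrial share of gene counts was 0.650% and 0.637% in Scr and higher, at 0.853% and 1.16%, in miR-99 KD. The share of entries in the category of no counted feature was 19.8% and 14.9% in Scr and lower, at 13.5% and 12.01%, in miR-99 KD. The libraries are bulk samples, in which fewer cells of a type and less RNA per cell cannot be told apart.

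Junb was the most abundant AP-1 transcript in Scr and was lower in both miR-99 KD libraries. Its protein is a Jun family member that often restrains proliferation. Junb had 3310 and 3600 counts in the Scr libraries, against 1509 and 1104 for miR-99 KD 1 and 2, which is 86.1, 86.0, 35.4 and 26.0 CPM. The Scr libraries were alike, the miR-99 KD libraries were both lower, and the groups did not overlap. The group means were 86.0 ± 0.0615 CPM (SD, n = 2) and 30.7 ± 6.65 CPM, a level 2.81-fold lower in miR-99 KD. The log2 fold change in the edgeR fit over all genes was −1.43 ± 0.24 (SE), and it stayed between −1.63 and −1.18 when each library was left out in turn. Junb (ENSMUSG00000052837) lies at chr8:84974484-84978718 on GRCm38 in GENCODE M21. Its exons overlap those of Prdx2, a peroxiredoxin gene on the opposite strand, by 173 bases, and Prdx2 had 73.0 and 64.8 CPM in the Scr libraries, against 79.2 and 106 CPM in the miR-99 KD libraries.

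Jun, which encodes c-Jun, the strongest activator of the family, also had lower values in miR-99 KD, with a wider spread in Scr. It had 492 and 274 counts in the Scr libraries, against 142 and 198 in the miR-99 KD libraries, or 12.8, 6.54, 3.33 and 4.66 CPM. Both miR-99 KD libraries were below both Scr libraries, and Scr 1 was 1.95-fold above Scr 2. The means were 9.67 ± 4.42 CPM and 3.99 ± 0.939 CPM, and the log2 fold change was −1.20 ± 0.39. Without Scr 1 it was −0.65, so the size of the difference depended on that library. Jun (ENSMUSG00000052684) is a single-exon gene at chr4:95049034-95052222 on GRCm38.

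The antisense gene Junos, whose exons overlap those of Jun by 232 bases, had 8 and 4 counts in the Scr libraries, against 48 and 128 in the miR-99 KD libraries. Its order over the groups was the opposite of that of Jun. Without a stated strand setting, reads of Jun and Junos cannot be told apart where they overlap. Junos is not among the 10 genes and was singled out after its values were seen.

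Jund, whose protein is the Jun member usually present in resting cells, varied more between the Scr libraries than between the groups. It had 148 counts in Scr 1 and 1028 in Scr 2, against 558 and 306 counts in miR-99 KD, or 3.85, 24.6, 13.1 and 7.20 CPM. The miR-99 KD libraries lay between the Scr libraries. The log2 fold change was −0.48 ± 0.96, and it ran from −1.23 without Scr 1 to 1.57 without Scr 2, so no direction can be given for Jund.

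The transcript of Jund has the highest GC content of the 10 genes, 67.1%, against 51.9% to 62.6% in the others. Among 51 tested genes above 65% GC, the median log2 CPM was 1.21 lower in Scr 1 than in Scr 2 (Scr 1 minus Scr 2 = −1.21). The median difference was −0.32 over 475 genes of 60% to 65% GC, and between 0.00 and 0.03 in size in each range of lower GC content. Jund itself differed by −2.80, lower than all but 0.378% of tested genes. In miR-99 KD 2 the median difference from Scr 2 was lower in each range of higher GC content, from 0.14 below 40% GC to −0.19 at 50% to 55%, −0.30 at 55% to 60% and −0.44 at 60% to 65%. Jun (55.5% GC) and Fosl1 (58.5%) lie between 55% and 60%, and Junb (62.6%) between 60% and 65%. For miR-99 KD 1 the medians against Scr 2 were −0.08 at 55% to 60% GC and −0.11 at 60% to 65%. Between the groups, in the edgeR fit to all 4 libraries, the median log2 fold change was −0.095 at 55% to 60% GC. It was −0.016 at 60% to 65% and 0.35 above 65%. The part of GC content in the Jund, Junb, Jun and Fosl1 values was not tested. Jund (ENSMUSG00000071076) is a single-exon gene at chr8:70698949-70700616, and 877 bases of it overlap the opposite-strand gene Gm11175, which had 0 counts in each of the 4 libraries.

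**Figure D1:**
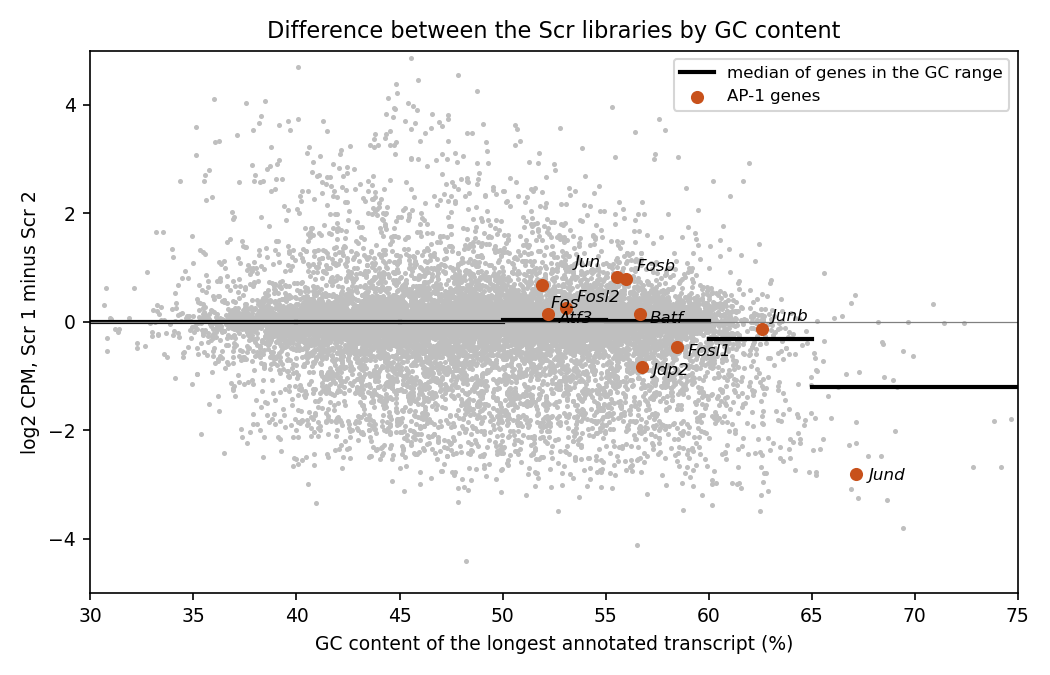
Difference in log2 CPM between Scr 1 and Scr 2 (vertical axis) against the GC content of the longest annotated transcript in percent (horizontal axis), for the tested genes in grey, 5 of which lie outside the range drawn, and for the AP-1 genes in orange. Black lines are medians of the genes in each range of GC content, and Jund, at 67.1% GC and −2.80, sits with the low values above 65% GC.

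Fos, the best known immediate-early gene, did not separate the groups. It had 748 and 463 counts in the Scr libraries, against 524 and 781 in the miR-99 KD libraries, or 19.4, 11.1, 12.3 and 18.4 CPM. Scr 1 and miR-99 KD 2 were the higher libraries, and the groups overlapped throughout. The means were 15.3 ± 5.93 CPM and 15.3 ± 4.30 CPM, with a log2 fold change of 0.08 ± 0.35. The sign turned without Scr 2 (−0.17) or miR-99 KD 2 (−0.19). Fos (ENSMUSG00000021250) has 4 exons at chr12:85473890-85477273 on GRCm38, and no exon of another gene overlaps them.

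Fosl1, which encodes Fra-1, a Fos protein without the strong activation domain of c-Fos, had the largest fold difference among the genes with lower values. It had 188 and 258 counts in the Scr libraries, against 84 and 40 in the miR-99 KD libraries, or 4.89, 6.16, 1.97 and 0.941 CPM. Both miR-99 KD libraries were lower than both Scr libraries, and they differed 2.09-fold from each other. The means were 5.53 ± 0.901 CPM and 1.45 ± 0.727 CPM, 3.80-fold lower in miR-99 KD, with a log2 fold change of −1.87 ± 0.47. With each library left out in turn it lay between −2.47 and −1.39. Fosl1 (ENSMUSG00000024912) lies at chr19:5447547-5455946. Its exons overlap the opposite-strand gene Ccdc85b by 1163 bases, and Ccdc85b had 4.55 and 7.95 CPM in the Scr libraries, against 7.12 and 7.74 CPM in the miR-99 KD libraries.

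The other Fos family genes were Fosl2, which encodes Fra-2, and Fosb. Fosl2 had 483 and 398 counts in the Scr libraries, against 565 and 478 in the miR-99 KD libraries (12.6, 9.51, 13.2 and 11.2 CPM), with overlapping groups and a log2 fold change of 0.21 ± 0.24. Fosb was near the lower limit of the data, with 33 and 18 counts in the Scr libraries, against 10 and 15 in the miR-99 KD libraries. Both miR-99 KD libraries were lower, and the log2 fold change was −1.05 ± 0.53, or −0.49 without Scr 1.

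Batf, an AP-1 factor without an activation domain that pairs with Jun proteins and with IRF factors, had the smallest log2 fold change of the 10 and the smallest SE. It had 1356 and 1216 counts in the Scr libraries, against 1226 and 1387 in the miR-99 KD libraries, or 35.3, 29.0, 28.7 and 32.6 CPM. The groups overlapped, with means of 32.2 ± 4.40 CPM and 30.7 ± 2.75 CPM and a log2 fold change of −0.01 ± 0.19. Its sign turned with DESeq2 size factors (0.03), under which the median of all tested genes was 0.03 in place of −0.01.

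Jdp2, a repressor that binds Jun proteins, had 282 and 496 counts in the Scr libraries, against 368 and 474 in the miR-99 KD libraries (7.33, 11.8, 8.62 and 11.1 CPM). Both miR-99 KD libraries lay between the Scr libraries, and the log2 fold change of 0.08 ± 0.37 turned to −0.20 without Scr 1. Atf3, a stress-induced factor, had 8 and 7 counts in the Scr libraries, against 19 and 38 in the miR-99 KD libraries, or 0.208, 0.167, 0.445 and 0.894 CPM. It was the 1 AP-1 gene with higher values in both miR-99 KD libraries, at a log2 fold change of 1.87 ± 0.56, and it ranged from 1.34 to 2.34 with a library left out. Both Scr values of Atf3 were under the filter's cutoff of 0.237 CPM, so it entered the fit through the group in which it was higher and had to differ.

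**Figure D2:**
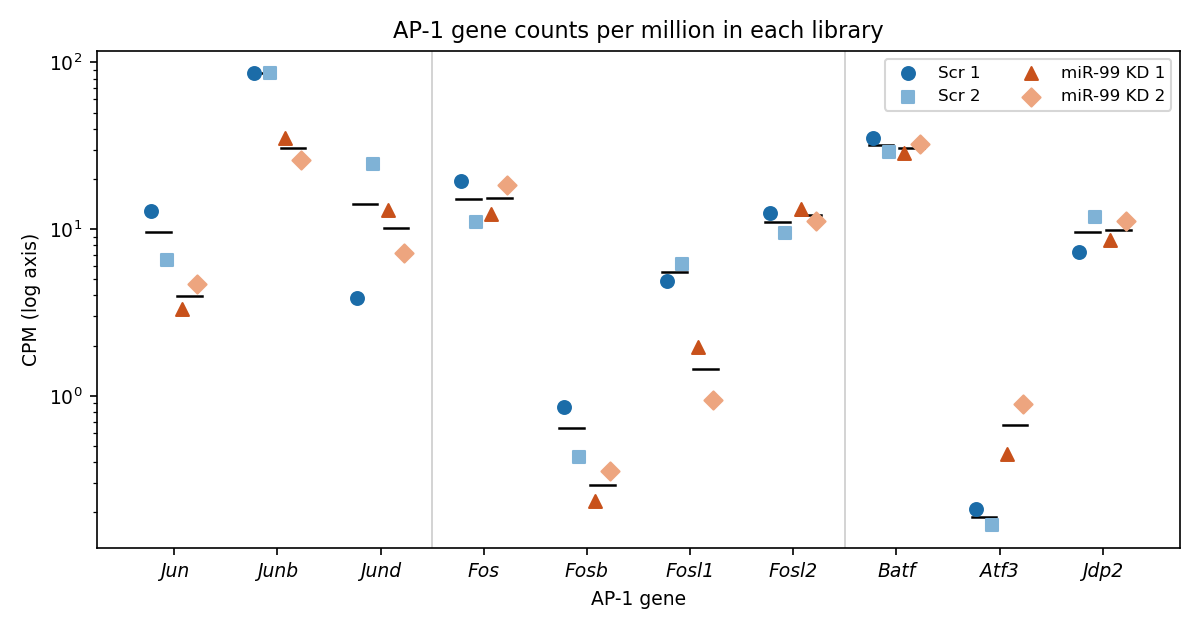
CPM of each AP-1 gene (log axis) in Scr 1, Scr 2, miR-99 KD 1 and miR-99 KD 2, with 1 point a library and black bars for the group means (n = 2). The points of Jun, Junb, Fosb and Fosl1 lie lower in both miR-99 KD libraries, those of Atf3 higher, and Jund spreads from 3.85 to 24.6 CPM within Scr.

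Over the 10 genes, 4 had a log2 fold change above 0 and 6 below 0, and the median was −0.24 beside −0.01 over all 15591 genes tested. That median was 0.021 in limma-voom, so its sign is not settled. Both miR-99 KD libraries were below both Scr libraries in 4 AP-1 genes (Jun, Junb, Fosb and Fosl1), beside 25.3% of all tested genes. They were above both Scr libraries in 1 (Atf3), beside 18.9% of all tested genes. These orders were taken on CPM after TMM scaling, as in the edgeR fit, and not on the CPM printed here. In edgeR's quasi-likelihood test 0 of the 10 and 0% of all genes had an adjusted p under 0.05. At an unadjusted p under 0.05, 3 AP-1 genes were lower (Jun, Junb and Fosl1; 5.23% of all genes) and 1 was higher (Atf3; 2.66%). DESeq2 called 2 lower, Junb and Fosl1, and limma-voom called 0. Of all 15591 genes DESeq2 called 1.67% in both directions together, 148 lower and 113 higher. Without Scr 1 the edgeR log2 fold change was −1.44 for Junb and −2.03 for Fosl1. In that fit Scr 2 alone stands for its group and is taken to be as variable as miR-99 KD. Since the genes were chosen with this contrast in view, nothing is read from these counts.

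**Figure D3:**
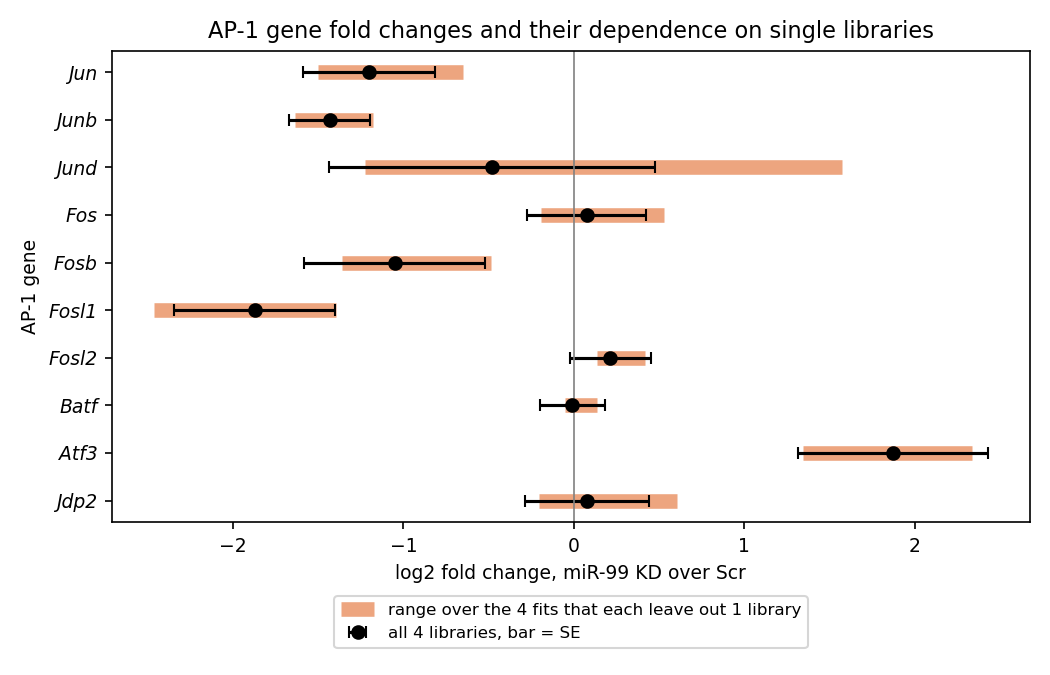
log2 fold change of miR-99 KD over Scr for each AP-1 gene, as points with SE bars from the edgeR fit to all 4 libraries, and as orange bars for the range when each library was left out in turn. Junb stays between −1.63 and −1.18 and Fosl1 between −2.47 and −1.39, whereas Jund spans −1.23 to 1.57.

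Levels of different genes were compared as reads per kilobase of exon after scaling to library totals (RPKM, with exon lengths of GENCODE M21). Of the exon bases, 1163 of 2033 in Fosl1 and 877 of 1668 in Jund are shared with an opposite-strand gene. With the strand setting not given, the RPKM of these 2 genes, and the ratios, order and shares that use them, may be too high or too low. On that scale Junb had 37.4 RPKM in both Scr libraries and 15.4 and 11.3 RPKM in miR-99 KD. Batf had 25.1, 20.7, 20.4 and 23.2 RPKM. Junb was therefore above Batf in both Scr libraries and below it in both miR-99 KD libraries. Within a library the ratio of Junb to Batf was 1.49 and 1.81 in the Scr libraries, against 0.752 and 0.486 in the miR-99 KD libraries, and such a ratio does not depend on how libraries are scaled.

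Other ratios within libraries differed in how steady they were. The ratio of Fos to Jun was 2.06 and 2.29 in the Scr libraries, against 5.003 and 5.35 in the miR-99 KD libraries, so it was close within groups although both genes were higher in Scr 1 than in Scr 2 and in miR-99 KD 2 than in miR-99 KD 1. The ratio of Fosl1 to Fosl2 was 1.85 and 3.09 in the Scr libraries, against 0.708 and 0.398 in the miR-99 KD libraries, so the more abundant of these 2 genes per length was Fosl1 in Scr and Fosl2 in miR-99 KD. The ratio of Junb to Jun overlapped between the groups, at 9.32, 18.2, 14.7 and 7.73. An exact permutation test of 2 against 2 libraries cannot go below p = 0.333, two-sided, and none is given for these ratios.

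The order of mean levels per length in Scr was Junb (37.4 RPKM), Batf (22.9), Jund (8.51), Fos (6.49), Jdp2 (4.46), Jun (3.03), Fosl1 (2.72), Fosl2 (1.14), Fosb (0.103) and Atf3 (0.0871). In miR-99 KD it was Batf (21.8 RPKM), Junb (13.3), Fos (6.51), Jund (6.08), Jdp2 (4.60), Fosl2 (1.26), Jun (1.25), Fosl1 (0.715), Atf3 (0.311) and Fosb (0.0470). The middle of the order is not fixed by these data, since the libraries of Jund overlap those of Fos and of Jdp2 in both groups, and those of Jun overlap those of Fosl1 in Scr and of Fosl2 in miR-99 KD. Junb and Batf were above the other 8 genes in each of the 4 libraries.

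The sum over the Jun family was 43.7 and 54.1 RPKM in the Scr libraries, against 24.3 and 17.1 RPKM in the miR-99 KD libraries. The Fos family summed to 12.1, 8.78, 7.59 and 9.49 RPKM, with overlapping groups. The sum of Batf, Atf3 and Jdp2, nearly all of it Batf and Jdp2, was 28.6, 26.2, 24.7 and 28.8 RPKM. As a share of the 10 genes, the Jun family made up 51.8% and 60.7% in the Scr libraries, against 42.9% for miR-99 KD 1 and 30.8% for miR-99 KD 2. The share of Junb was 44.3% and 41.9% in the Scr libraries, against 27.2% and 20.4% in the miR-99 KD libraries. These are shares of transcripts and do not give the makeup of AP-1 dimers.

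**Figure D4:**
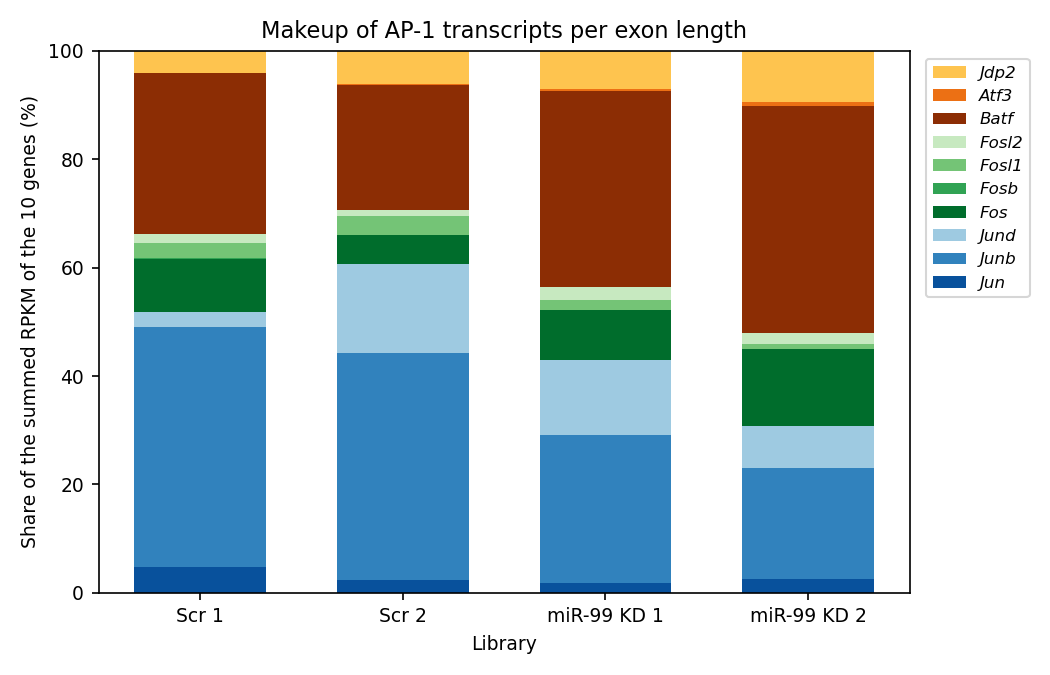
Share of each AP-1 gene in the summed RPKM of the 10 genes (percent, vertical axis) in each library (horizontal axis), as stacked bars with the Jun family in blue, the Fos family in green and Batf, Atf3 and Jdp2 in brown to yellow. The Junb segment is 44.3% and 41.9% of the Scr bars and 27.2% and 20.4% of the miR-99 KD bars, and the Batf segment is 29.7%, 23.2%, 36.2% and 41.9% in the order drawn.

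The genes whose log2 CPM pattern over the 4 libraries came nearest to that of Fos, among 15590 others, were Gm6439, Ipcef1 and Gm10263, with root mean square differences of 0.03 each on the log2 scale. Nearest to Jun were Gm26678, Ccdc62 and Gm2245, at 0.04, 0.05 and 0.08. With 4 libraries many genes share any pattern, and 4 of these 6 had under 1.5 CPM in each library.

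Other immediate-early genes were followed as the closest comparison, since they answer to the same signals. Of 33 listed genes 28 were tested, 10 above and 18 below a log2 fold change of 0, and the median was −0.17. In edgeR 0 passed over all genes. An unadjusted p under 0.05 was found for 1 higher and 3 lower genes, and DESeq2 called 1, Egr1, lower. Over all tested genes, beside which this list and those below are to be read, 2.66% were higher and 5.23% lower at that p. DESeq2 called 1.67% of them in both directions together, 148 lower and 113 higher. The zinc finger factor gene Egr2 had 57 and 61 counts in the Scr libraries, against 25 and 15 in the miR-99 KD libraries, a log2 fold change of −1.58 ± 0.41 with an edgeR adjusted p of 0.578. Ier5l, a relative of the immediate-early gene Ier5, had 3, 4, 14 and 24 counts (2.36 ± 0.59, edgeR adjusted p 0.549). Like Atf3, Ier5l was under the filter's cutoff in both Scr libraries and passed only through miR-99 KD, so it had to differ, and it is the 1 higher gene counted for this list. Egr1, named because it was the single gene DESeq2 called (adjusted p 0.00144), had 14.5 and 49.7 CPM in the Scr libraries, against 3.66 and 0.823 CPM in the miR-99 KD libraries. Its edgeR adjusted p was 0.580.

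MAP kinases and their phosphatases, which set the activity of AP-1, gave no call. Of 34 genes of the cascade 29 were tested, 19 above and 10 below a log2 fold change of 0 (median 0.15). At an unadjusted p under 0.05, 0 were higher and 1 was lower, Map2k7, the kinase that activates JNK. Map2k7 had 154 and 138 CPM in the Scr libraries, against 106 and 80.9 CPM in the miR-99 KD libraries (−0.59 ± 0.20, edgeR adjusted p 0.621). The stress kinase gene Mapk13 had 27.1, 13.9, 24.4 and 53.7 CPM, with overlapping groups. DESeq2 called 0 in the cascade. The cascade median turned negative without Scr 1 (−0.076) or miR-99 KD 1 (−0.0063), so no direction can be given for the cascade.

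Of 11 MAP kinase phosphatases 9 were tested, 5 above and 4 below a log2 fold change of 0 (median 0.09). At an unadjusted p under 0.05, 2 were higher and 1 lower, and edgeR adjusted and DESeq2 each called 0. Dusp6, a phosphatase of ERK that ERK signalling induces, had 51.8 and 52.4 CPM in the Scr libraries, against 78.7 and 98.5 CPM in the miR-99 KD libraries (0.82 ± 0.19, edgeR adjusted p 0.517). Dusp10, a phosphatase of JNK and p38, had 72, 75, 136 and 148 counts (0.92 ± 0.25, edgeR adjusted p 0.580). The list median turned negative without Scr 1 (−0.60), miR-99 KD 1 (−0.58) or miR-99 KD 2 (−0.02), so no direction can be given for the list.

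Serum response factor and its partners, which drive Fos, were listed together with the MEF2 factors, and 9 of the 10 listed genes were tested. Of these 5 lay above and 4 below a log2 fold change of 0 (median 0.04), and at an unadjusted p under 0.05 edgeR had 0, as did DESeq2 after adjustment. The median was −0.36 without Scr 1 and −0.43 without miR-99 KD 1, so its direction is not settled. The cofactor genes Mrtfa (205, 181, 159 and 114 CPM) and Mrtfb (44.7, 41.7, 33.6 and 20.0 CPM) had lower values in both miR-99 KD libraries. The edgeR adjusted p was 0.681 for each.

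The list of other bZIP factors had 20 of 25 genes tested, 11 positive and 9 negative, with a median of 0.02. At an unadjusted p under 0.05, 1 was higher and 1 lower, and DESeq2 called 0. Batf2, a relative of Batf, had 70 and 75 counts in the Scr libraries, against 35 and 38 in the miR-99 KD libraries (−1.02 ± 0.30, edgeR adjusted p 0.583). Nfe2l2, the regulator of the oxidative stress response, had 86.1, 74.5, 96.1 and 122 CPM (0.50 ± 0.18, edgeR adjusted p 0.627).

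Partners, ligases and kinases of AP-1 proteins were all tested, 14 of 14, with 10 positive and 4 negative values and a median of 0.13. At an unadjusted p under 0.05, 1 was higher and 0 lower, and DESeq2 called 0. Irf8, a myeloid factor that binds DNA together with Batf and Jun proteins, had 217 and 154 CPM in the Scr libraries, against 284 and 446 CPM in the miR-99 KD libraries (1.04 ± 0.28, edgeR adjusted p 0.580). The calcium-regulated partner gene Nfatc1 had 170, 159, 134 and 128 CPM (−0.27 ± 0.15, edgeR adjusted p 0.693).

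Described AP-1 target genes were split between the directions. Of 22 listed genes 15 were tested, 7 positive and 8 negative, with a median of −0.00. At an unadjusted p under 0.05, 0 were higher and 2 lower, and DESeq2 called 0. The chemokine gene Ccl3 had 11.3 and 10.96 CPM in the Scr libraries, against 3.80 and 6.23 CPM in the miR-99 KD libraries (−1.10 ± 0.32, edgeR adjusted p 0.583). Hmox1, which encodes heme oxygenase, had 29.5, 24.5, 15.5 and 10.1 CPM (−1.01 ± 0.29, edgeR adjusted p 0.583).

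Heat shock genes were followed because handling and sorting of cells can induce them together with Fos and Jun. Of 16 listed genes 14 were tested, 10 positive and 4 negative, with a median of 0.06, and at an unadjusted p under 0.05, 1 was higher and 0 lower, while DESeq2 called 0. The chaperone genes Hspa8 (353, 323, 405 and 448 CPM) and Hsp90aa1 (296, 298, 342 and 438 CPM) were slightly higher in both miR-99 KD libraries, with edgeR adjusted p of 0.621 and 0.655. Summed over the list, heat shock genes held 3140 and 3016 CPM in the Scr libraries, against 3244 and 3301 CPM in the miR-99 KD libraries. Abundant chaperones carry that sum: the mean log2 CPM of the list overlapped between the groups (5.77, 5.59, 5.76 and 5.77). The inducible genes Bag3 and Hspa1b had log2 fold changes of −0.45 and −0.35. Hspa1a, Dnajb1, Hsph1 and Chordc1 of the same list went the other way, at 0.05, 0.06, 0.25 and 0.36. Hspa1a and Hspa1b had only 5 to 23 counts a library. These genes were singled out after their values were seen, and they give no common direction. The part of handling in the AP-1 values was not tested.

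**Figure D5:**
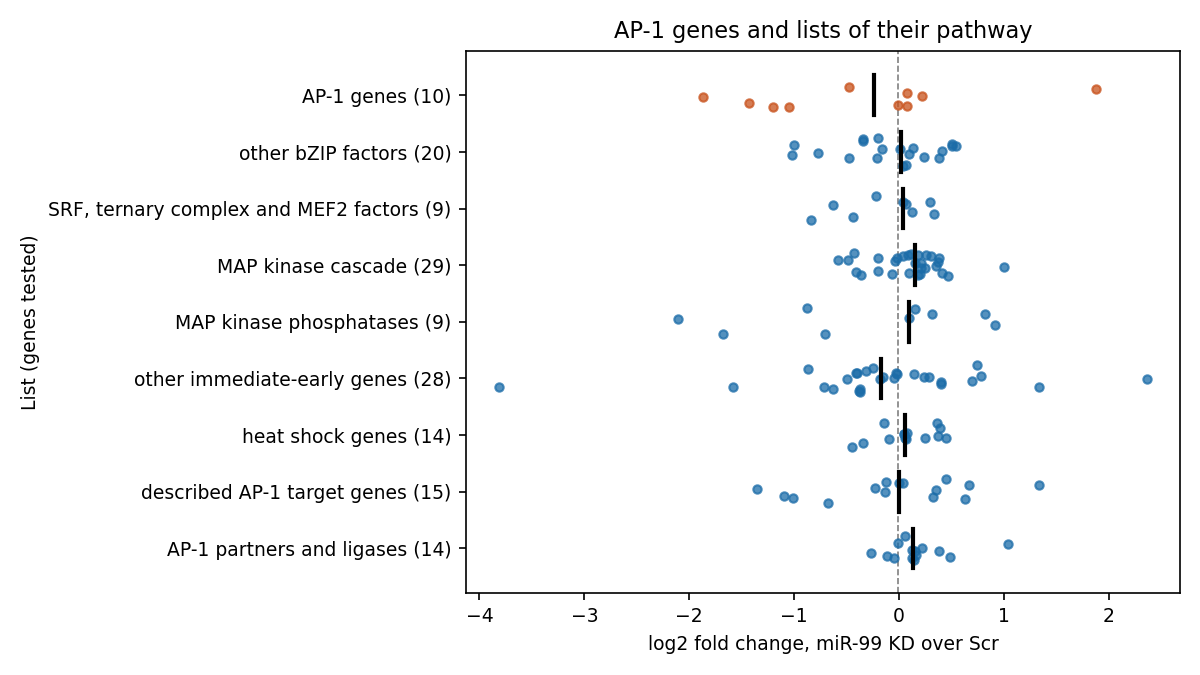
log2 fold change of miR-99 KD over Scr (horizontal axis) for the tested genes of each list (rows, with the number tested), as 1 point a gene, AP-1 genes in orange and other lists in blue, and black bars for medians. The dashed line is the median of all tested genes (−0.01), and the list medians run from −0.24 in AP-1 genes to 0.15 in the MAP kinase cascade.

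Some cell type markers also differed between the groups. L-GMPs resemble progenitors of granulocytes and macrophages, so markers of these lineages are not specific to other cells. Granulocyte markers summed to 6199 and 4202 CPM in the Scr libraries, against 10996 and 24353 CPM in the miR-99 KD libraries, with 11 of 12 positive and 9 of 12 higher in both miR-99 KD libraries. Of all tested genes, 18.9% were higher in both miR-99 KD libraries, with these orders again taken after TMM scaling. Among the 12 markers, edgeR called 0 after adjustment and DESeq2 called 7 higher. DESeq2 called 1.67% of all tested genes in both directions together, 113 higher and 148 lower. Monocyte and macrophage markers summed to 2589, 2327, 2671 and 3856 CPM, with 4 of 11 tested positive. Stroma and endothelium markers summed to 607, 545, 352 and 276 CPM, with 5 of 6 tested negative and Cdh5 at 0 counts in both miR-99 KD libraries. Most of that sum was Vcam1 and Pecam1, which blood cells also express. T and NK cell markers held 1.06 to 3.59 CPM in all, with Cd8a at 0 in 3 libraries. Erythroid markers held 41.3 to 104 CPM, megakaryocyte markers 7.36 to 15.9 CPM and markers of mast cells, basophils and eosinophils 88.9 to 204 CPM. The stroma sum, through Vcam1, and the T and NK cell sum separated the groups in the same order as Junb. Kit, Hoxa9, Meis1 and the share of entries with no counted feature did so too. The granulocyte sum and the mitochondrial share separated them in the opposite order. Their part in the Junb, Jun and Fosl1 values was not tested.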

How the data were processed

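The authors deposited raw read counts per Ensembl gene, 1 file a library, as whole numbers whose totals differ. Per the submitters' processing notes, STAR, Picard, HTSeq and DESeq2 were used with build mm9. For versions, annotation and strand setting: not given in the sources used here. Per the labels' protocols, RNA was amplified with SMARTer, which does not count molecules. The 5 categories that name no gene held 43.7% to 49.7% of entries and stayed out. Alignments that were not unique were among them, so near-identical genes are under-counted.

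Symbols were matched by identifier (44585 of 45232). Coordinates, exon lengths and GC content are from GENCODE M21 (GRCm38), and none were converted from mm9. CPM are counts over gene totals, and RPKM divide them by merged exon length. The order of the libraries over all tested genes was taken on CPM with TMM factors. Genes were tested in R 4.3.3 with the quasi-likelihood method of edgeR 4.0.16, two-sided, with TMM factors, a minimum count of 10 in the default filter and Benjamini-Hochberg adjustment over 15591 genes. SE was derived from the test statistic. log2 CPM used a prior count of 2. DESeq2 1.42.0, limma-voom (limma 3.58.1), other scaling and filters, each library left out and a replicate block were alternatives. The fits were tested on simulated data.

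The AP-1 genes and all lists were chosen with earlier results of these data known. Named genes were all 10 AP-1 genes, the 2 genes of each pathway list with the smallest p, the 3 nearest in pattern to Fos and to Jun, and 6 gate or MLL-AF9 genes. One list of cell type markers is not reported here.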

Additional observations from a re-analysis of the deposited data

How the results depend on the processing

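Of the 10 AP-1 genes, Jun, Junb, Fosb, Fosl1, Fosl2 and Atf3 kept their sign under each setting tried that could be fitted to them, and Fos, Jund, Batf and Jdp2 changed it under 2, 3, 5 and 2 of 11 settings. Jund also changed it in a block with crossed numbers, which is not among the 11 (0.02). The median over the AP-1 genes, −0.24 in the main analysis, was 0.021 in limma-voom and lay between −0.35 and −0.10 with each library left out in turn. It was 0.015 with the replicate block and 0.0063 with the replicate numbers crossed in the block. In the main analysis this median is the midpoint of Jund and Batf.

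The number of genes called over the whole table, 0 in the main analysis, was 261 in DESeq2, 23 with upper-quartile factors and 9 with no filter on low counts. It ran from 0 to 294 with each library left out, and the 294 came without Scr 1. Of the pathway lists, 1 gene was called in DESeq2, without Scr 1 and with crossed numbers, and in each case it was Egr1. With each library left out, that count ran from 0 to 1. List medians lay on the other side of 0 in 14 of 88 combinations of list and setting.

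The replicate block called 0 genes. Same-numbered libraries showed no sign of pairing: the deviations of Scr 1 and miR-99 KD 1 from their group means correlated at −0.43 across 15591 genes. With 2 libraries a group, that value cannot show whether the mice were paired. A block with crossed numbers, added after seeing the data, called 28 genes, 0 of them AP-1 genes and 1 of them in the pathway lists. Depth limits Fosb and Atf3, which had 7 to 38 counts a library.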
